A study of Mus musculus with 17 samples.

Results

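Colony-stimulating factor receptors were followed in macrophages grown from mouse bone marrow, with and without the signalling inhibitor SOCS3 and before and after IL-6. The members are the genes Csf1r, Csf2ra, Csf2rb, Csf2rb2 and Csf3r, and every probe set whose only platform gene symbol is one of these names was taken: 9 of 12488 probe sets on the array. Each gene has 1 probe set or more, and where a gene has several, the brightest over all arrays is called the first. Of the 9, 8 were bright enough to be tested among 9871 probe sets. The second probe set of Csf2rb2 was not. One further probe set, annotated to both Csf2rb and Csf2rb2, was not counted as a member.

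Per the labels, irradiated mice received fetal liver cells of SOCS3+/+ embryos (called WT here) or SOCS3-/- embryos (called KO), and macrophages were differentiated from donor-derived marrow of these animals. Cells were unstimulated or were kept in 10 ng/ml IL-6, for 100 min in some cultures and 400 min in others. Unstimulated WT cells were hybridised on 2 arrays, and WT cells at 100 min, WT cells at 400 min and KO cells unstimulated, at 100 min and at 400 min on 3 arrays per group, which makes 17. The labels give no age or strain of the mice, do not describe the deleted part of the gene, and do not say how far host cells were removed. They number replicates 1 to 3 without saying whether these are separate cultures or animals, so the p-values measure the spread between these arrays, which may be technical.

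These receptors carry the growth signals of the myeloid lineage. CSF-1, through the receptor tyrosine kinase encoded by Csf1r, keeps macrophages alive and is the usual factor for growing them from marrow. GM-CSF binds an alpha chain, encoded by Csf2ra, and signals through the common beta chain, encoded by Csf2rb, which IL-3 and IL-5 also use and which activates JAK2 and STAT5. Mice have another beta chain, encoded by the closely related gene Csf2rb2, which serves IL-3. G-CSF acts on the receptor encoded by Csf3r, best known on neutrophils and their precursors, whose signalling SOCS3 restrains as it does that of gp130, the receptor subunit of IL-6.

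The arrays had features that bear on every gene. Socs3 itself read between 429.5 and 2647.6 (deposited intensity, first probe set) on the stimulated WT arrays and between 14.9 and 160.2 on 8 of the 9 KO arrays, but 883.7 on the array labelled KO 400 min replicate 3, so receptor results of that group are also given without it. Unstimulated WT arrays read 110.7 and 72.9, inside the range of those 8. The highest of the 8 was KO 100 min replicate 3, which on the second probe set read 319.7 against 148.5 and 109.8 on the other arrays of its group. The lowest stimulated WT array was 100 min replicate 3, at 429.5 against 2647.6 and 1911 on the others of its group. On the second probe set these read 479.7 against 1307.6 and 1214.6. The sex-linked genes Eif2s3y and Xist separated the genotypes without overlap, so genotype cannot be told apart from that difference in any comparison of KO with WT. The summed normalized intensity of 9 of 10 listed macrophage markers lay between 66520 and 81130 on all arrays. Cd68, Lyz2 and Adgre1 were bright, Mertk was dim at a median of 103, and Fcgr1 was itself called higher in KO cells at 400 min (1.96, adjusted p = 0.0168). Uncalled there were Mrc1, which read from 242 to 6663 over all arrays (3.25, adjusted p = 0.150), Cd14 (-1.14, adjusted p = 0.0926) and Mertk (-1.92, adjusted p = 0.327). The other macrophage markers differed by -0.37 to 0.55. The sums of 13 of 15 neutrophil and precursor markers lay between 1060 and 2266, with Mpo at a median of 114 and Elane at 249, and those of 8 of 9 mast cell and basophil markers between 693 and 1244, with Fcer1a at or under the floor of 22.01 on 7 arrays and Cpa3 on 4, but Tpsb2 at a median of 350 and Gata2 at 259. In bulk RNA, a change in the number of cells of a type and a change of RNA per cell cannot be told apart.

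Values below are quantile-normalized intensities, with group means ± SD, and differences are log2 values with their standard error (SE) from limma over all 17 arrays. A probe set was called when its p, adjusted by Benjamini-Hochberg over all 9871 tested, was under 0.05. The genes of both beta chains, the common one and that of IL-3, rose in KO macrophages after 400 min of IL-6: Csf2rb by 3.20 (SE 0.67, adjusted p = 0.0276), a 9.19-fold rise, and Csf2rb2 by 1.20 (SE 0.27, adjusted p = 0.0396), a 2.30-fold rise. They were 2 of the 8 tested receptor probe sets, and 1.82% of all tested probe sets were called in that comparison, 1.2% upward. No other receptor probe set was called in any of the 11 comparisons. The other 10 comparisons called 0 of 8, against 0.577% of all probe sets in KO cells at 100 min (0.537% higher, 0.0405% lower), 0.0101% in WT cells at each time, 0.365% between KO and WT cells at 400 min (0.314% higher, 0.0507% lower) and 0.0405% between them at 100 min. The remaining comparisons called none of the 9871 probe sets, so a count of 0 there is not particular to the receptors. They are 400 against 100 min in each genotype, unstimulated KO against WT cells, and the difference in response at each time.

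How far the arrays of a pair of groups separated gives a second count. After IL-6, 3 of the 8 receptor probe sets lay higher and 1 lower on every array of WT cells at 100 min than on every unstimulated array (10.7% and 11.3% of all tested probe sets), and likewise 3 and 1 at 400 min (10.8% and 11.2%). The second probe set of Csf3r, bright enough for testing on stimulated arrays only, was 1 of the 3 at each time. In KO cells 2 were higher and 0 lower at 100 min (5.69% and 5.68%), and 2 were higher, both beta chains, and 1 lower at 400 min (8.56% and 9.11%). Between the times, 2 were higher and 1 lower at 400 min in KO cells (7.46% and 7.52%) and none in WT cells (5.94% and 5.7%). KO arrays lay above WT arrays for 1 probe set and below for 1 when unstimulated (11.8% and 11.7%), for 1 and 0 at 100 min (4.19% and 4.99%) and for 3 and 1 at 400 min (7.21% and 7.57%).

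By limma's p before adjustment, 4 of 8 receptor probe sets were under 0.05 in KO cells at 400 min (12.2% of all tested), 2 at 100 min (6.17%) and 1 between those times (9.03%). In WT cells these counts were 3 at 400 min (6.26%), 2 at 100 min (6.12%) and 1 between the times (6.3%). The second probe set of Csf3r, bright enough on stimulated arrays only, was counted at 400 min in each genotype and between the times in KO cells. They were 1 between unstimulated KO and WT cells (5.99%), 0 at 100 min (4.89%), 2 at 400 min (8.71%), and 0 for the difference in response at 100 min (3.66%) and at 400 min (5.38%).

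Summed markers of other cell types were also compared between unstimulated cells and cells at 400 min. The summed intensity of 5 of 6 dendritic cell markers was 792 to 1079 in unstimulated KO cells and 1350 to 1790 at 400 min, without overlap. At 100 min it was 1541 to 2283 in KO cells, a range that overlapped with that at 400 min. In WT cells it was 1181 to 1313 unstimulated and 881 to 1350 at 400 min. None of the 4 tested dendritic cell markers was called (Flt3 0.79, Cd83 1.39, Ccr7 0.79 and Itgax 0.19 on the log2 scale), and Zbtb46 was at or under the floor on 6 arrays. The neutrophil and precursor sums overlapped, at 1175 to 1563 and 1317 to 2065 in KO cells. The mast cell and basophil sums overlapped in KO cells, at 794 to 1175 and 1038 to 1244. In WT cells they did not, at 811 to 934 unstimulated and 1042 to 1237 at 400 min. The part of these cell types in the rise of the beta chains was not tested.

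**Figure D1:**
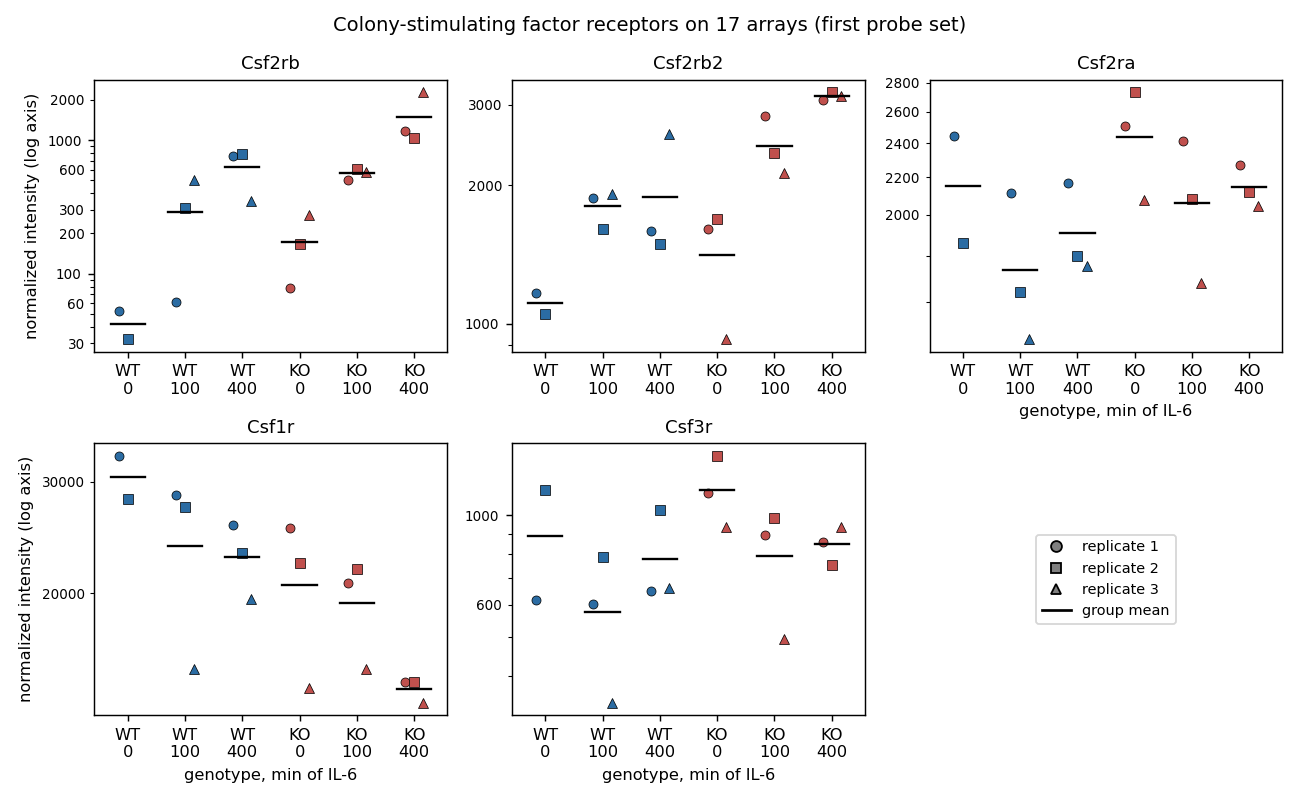
Normalized intensity (log axes) of the first probe set of each receptor gene on the 17 arrays, by genotype and minutes of IL-6; symbols mark replicates 1 to 3 and lines mark group means. Csf2rb and Csf2rb2 are highest on the 3 KO 400 min arrays, Csf2ra stays between 1456 and 2735, and the replicate 3 array is the lowest of its group for Csf1r in all 5 groups that have one.

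Csf2rb, the signalling subunit shared by the receptors of GM-CSF, IL-3 and IL-5, ranged from 32.2 to 2292 over the 17 arrays. In unstimulated WT cells it read 52.2 and 32.2. At 100 min of IL-6 the WT arrays read 60.9, 308 and 503.95 (replicates 1 to 3), and at 400 min 755, 793 and 352. All stimulated WT arrays were thus above both unstimulated ones, and replicate 1 at 100 min was barely so. In unstimulated KO cells Csf2rb read 77.7, 167 and 275. It was at 503.53, 611 and 576 after 100 min and at 1167, 1033 and 2292 after 400 min. The 3 KO groups did not overlap with one another, and the highest value was on the array labelled KO 400 min replicate 3. Groups that did not overlap with the 400 min group higher were seen for 8.56% of all tested probe sets between 400 min and unstimulated KO cells, and for 10.8% in WT cells.

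The WT means of Csf2rb went from 42.2 ± 14.2 (SD, n = 2) to 291 ± 222 and 634 ± 244 (SD, n = 3 each), and the KO means from 173 ± 98.9 to 563 ± 54.9 and 1497 ± 691 (SD, n = 3 each). In WT cells the difference at 400 min was 3.86 (SE 0.75), numerically larger than in KO cells, and did not pass (adjusted p = 0.163); at 100 min it was 2.37 (SE 0.75, adjusted p = 0.615) in WT and 1.88 (SE 0.67, adjusted p = 0.526) in KO cells. The unstimulated WT arrays, WT 100 min replicate 1 and KO unstimulated replicate 1 were under the 40th percentile of their array, at about 129, so the WT differences start from the dim range. The call in KO cells at 400 min was lost without any 1 of 5 of the 6 arrays of that comparison (highest adjusted p = 0.117, without KO unstimulated replicate 1); without the array labelled KO 400 min replicate 3 the difference was 2.86 (adjusted p = 0.0861). In WT cells at 400 min it was called without WT 100 min replicate 1 (adjusted p = 0.0414).

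Between genotypes, Csf2rb was higher on all unstimulated KO arrays than on both WT arrays, by 1.90 (SE 0.75, adjusted p = 0.834; 11.8% of all tested probe sets had groups that did not overlap in that direction). At 400 min the KO arrays again lay above all WT arrays, by 1.24 (SE 0.67, adjusted p = 0.644; 7.21% for all probe sets). At 100 min, where WT replicate 3 and KO replicate 1 were nearly equal and the groups just overlapped, the difference was 1.41 (SE 0.67, adjusted p = 0.999). The response to IL-6 was not shown to differ between genotypes: the KO response minus the WT response was -0.66 at 400 min, with a 95% confidence interval from -2.83 to 1.51, and -0.49 at 100 min, from -2.65 to 1.68. These intervals allow a KO response several times smaller or larger than that of WT cells. The means compared within KO and within WT cells share no arrays, but all comparisons share an estimate of the spread. Those at 100 and 400 min in a genotype also share its unstimulated arrays, and the genotype comparisons reuse the arrays of both.

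The order of the group means of Csf2rb was WT unstimulated, KO unstimulated, WT 100 min, KO 100 min, WT 400 min and KO 400 min. Along this order KO unstimulated overlapped with WT 100 min, WT 100 min with KO 100 min, and KO 100 min with WT 400 min. Only the lowest and the highest group had no overlap with their neighbour.

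Without the array labelled KO 400 min replicate 3, the difference of Csf2rb between KO and WT cells at 400 min was 0.89 (adjusted p = 0.812), and within replicates 1 and 2 it was 0.51. The KO response of Csf2rb minus the WT response at 400 min was -1.004 without that array, and over all alternatives it lay between -1.14 and -0.05.

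Csf2rb2 lies next to Csf2rb on mouse chromosome 15, with the microRNA gene Mir7676-1 the only annotated gene between them in the RefSeq table of GRCm38.p6. Its first probe set read 1166 and 1049 in unstimulated WT cells. With IL-6 the WT arrays read 1874, 1611 and 1915 at 100 min and 1590, 1495 and 2586 at 400 min, all above the unstimulated arrays. Of all tested probe sets, 10.7% separated this way at 100 min and 10.8% at 400 min. The KO arrays read 1610, 1693 and 925 unstimulated, 2833, 2357 and 2130 at 100 min, and 3074, 3193 and 3131 at 400 min. The 3 KO groups did not overlap, and the 400 min arrays lay closest together of all groups (3132 ± 59.7, SD, n = 3, against 1409 ± 422, SD, n = 3, in unstimulated KO cells). Against unstimulated KO cells, 5.69% of all tested probe sets separated upward at 100 min and 8.56% at 400 min. Between those times 7.46% did.

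At 100 min the difference of Csf2rb2 was 0.83 (SE 0.27, adjusted p = 0.394) in KO and 0.70 (SE 0.30, adjusted p = 0.802) in WT cells, and in WT cells at 400 min it was 0.73 (SE 0.30, adjusted p = 0.734). KO arrays lay above all WT arrays at both times of IL-6, by 0.43 at 100 min and 0.77 at 400 min (SE 0.27 for each, adjusted p = 0.999, then 0.382), while the unstimulated groups overlapped. KO arrays lay above WT arrays for 4.19% of all tested probe sets at 100 min and 7.21% at 400 min. The KO response exceeded the WT response by 0.47 at 400 min, with a 95% confidence interval from -0.40 to 1.35. The call of Csf2rb2 stood on a narrow margin: it held without 5 of the 17 arrays and was lost without each of the other 12 (highest adjusted p = 0.143, without KO unstimulated replicate 3, the lowest array of its group; 0.0814 without the array labelled KO 400 min replicate 3). Without that array Csf2rb2 was 0.78 higher in KO than in WT cells at 400 min (adjusted p = 0.448), and its response differed by 0.48.

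The second probe set of Csf2rb2 read between 2.37 and 156, at or under the floor on 7 arrays, and was too dim to be tested. Csf2rb and Csf2rb2 are near copies of each other, and whether their probe sets also bind the transcript of the other gene was not tested.

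The promoter window of Csf2rb2 is shown because its transcript rose with IL-6, a cytokine that acts through STAT3, and those of Csf2ra and Csf3r for comparison. Each runs from 250 bases before to 50 bases after the annotated start, from RefSeq (GRCm38.p6), where 3 of the 5 genes were matched; Csf1r and Csf2rb were not among them. Capitals mark matches, on either strand, to TTCNNNGAA, the palindrome that STAT factors recognise, and to GAGGAA, the core of many sites of the myeloid factor PU.1 (TTCCTC on the other strand). The windows are chr15:78305672-78305971 (minus strand) for Csf2rb2, chr19:61228369-61228668 (minus strand) for Csf2ra and chr4:126024409-126024708 (plus strand) for Csf3r.
Csf2rb2: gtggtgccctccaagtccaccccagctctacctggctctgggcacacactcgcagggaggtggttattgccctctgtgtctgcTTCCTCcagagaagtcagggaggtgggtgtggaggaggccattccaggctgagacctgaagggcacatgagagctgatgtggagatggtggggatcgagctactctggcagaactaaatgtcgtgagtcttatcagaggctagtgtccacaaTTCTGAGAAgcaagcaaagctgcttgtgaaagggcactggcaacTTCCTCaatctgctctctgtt
Csf2ra: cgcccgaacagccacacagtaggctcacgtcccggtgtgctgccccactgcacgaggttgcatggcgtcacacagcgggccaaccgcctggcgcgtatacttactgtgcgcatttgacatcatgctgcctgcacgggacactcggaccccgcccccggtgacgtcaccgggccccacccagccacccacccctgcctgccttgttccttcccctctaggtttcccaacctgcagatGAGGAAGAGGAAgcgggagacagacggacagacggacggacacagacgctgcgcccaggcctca
Csf3r: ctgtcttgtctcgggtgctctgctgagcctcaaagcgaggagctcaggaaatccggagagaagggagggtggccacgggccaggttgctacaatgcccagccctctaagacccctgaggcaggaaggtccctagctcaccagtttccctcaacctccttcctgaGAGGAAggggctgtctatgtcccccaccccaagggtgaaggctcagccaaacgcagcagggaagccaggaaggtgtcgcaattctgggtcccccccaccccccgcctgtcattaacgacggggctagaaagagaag

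Csf2rb2 held 1 match to TTCNNNGAA, TTCTGAGAA, from 15 to 7 bases before the start. Csf2ra and Csf3r held none. Of all 32851 promoter windows in the table, 8.3% held such a match. GAGGAA was found at 2 places in Csf2rb2, at 2 adjoining places from 14 to 3 bases before the start in Csf2ra, and at 1 place in Csf3r, against 28.3% of all windows with a match. A match is a run of letters and does not show that a factor binds there.

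**Figure D2:**
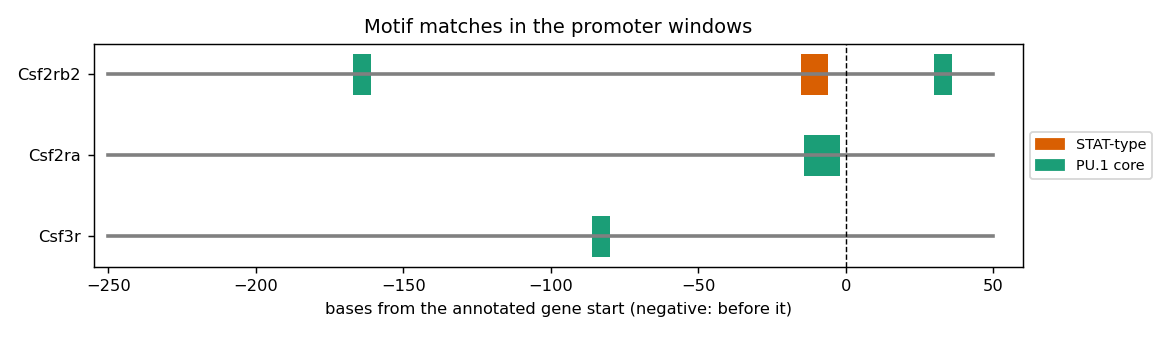
Position of the motif matches in the promoter windows of Csf2rb2, Csf2ra and Csf3r, in bases from the annotated gene start (dashed line); grey lines are the windows. Only the window of Csf2rb2 holds a STAT-type match, from 15 to 7 bases before the start; all 3 hold a PU.1 core.

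Csf2ra, the GM-CSF-binding chain that pairs with the product of Csf2rb, did not follow the beta chains. Its WT arrays read 2448 and 1860 unstimulated, 2114, 1641 and 1456 at 100 min, and 2168, 1800 and 1753 at 400 min. The KO arrays read 2511, 2735 and 2075 unstimulated, 2414, 2084 and 1680 at 100 min, and 2271, 2122 and 2043 at 400 min. All of these groups overlapped in each of the 9 comparisons between a pair of groups. With IL-6 the differences lay between -0.31 (WT 100 min, SE 0.25) and -0.17 (WT 400 min, SE 0.25). At 400 min in KO cells the difference was -0.18 (SE 0.22, adjusted p = 0.841), with a 95% confidence interval from -0.66 to 0.31. The interval for Csf2rb in the same comparison, 1.75 to 4.64, lies wholly above it. Between genotypes Csf2ra differed by 0.17 to 0.25 at the 3 times. Without the array labelled KO 400 min replicate 3, Csf2ra was at -0.14 in KO cells at 400 min and at 0.21 against WT cells.

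**Figure D3:**
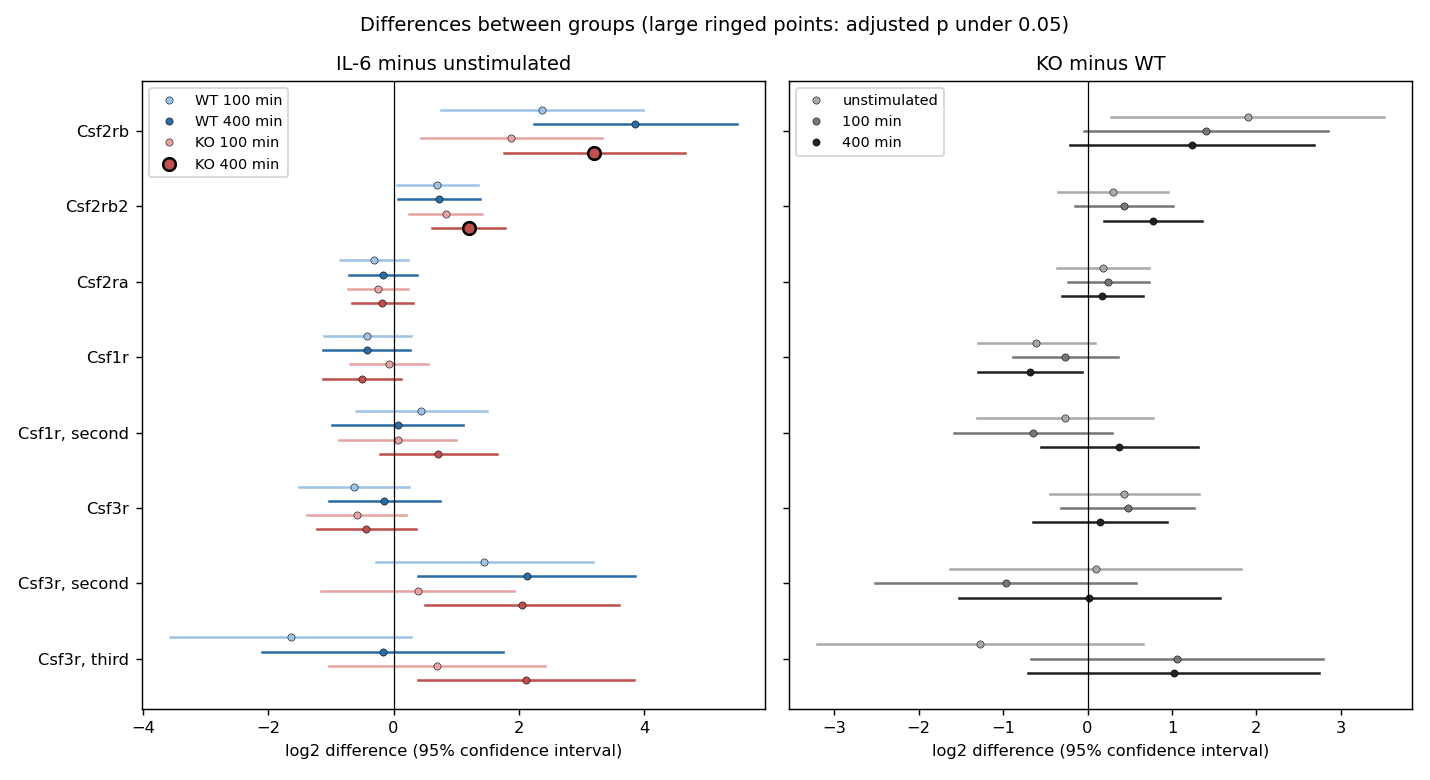
Log2 differences with 95% confidence intervals for the 8 tested receptor probe sets: IL-6 minus unstimulated in each genotype (left) and KO minus WT at each time (right). The large ringed points, Csf2rb and Csf2rb2 in KO cells at 400 min, are the called differences; the intervals of Csf2ra cover 0 throughout.

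Csf1r, the receptor of the macrophage growth factor CSF-1, was read at high intensity on every array by its first probe set. Unstimulated WT cells gave 32965 and 28135. The WT arrays read 28540, 27389 and 15195 at 100 min and 25598, 23184 and 19580 at 400 min. In KO cells the values were 25380, 22295 and 14177 unstimulated, 20773, 21886 and 15195 at 100 min, and 14477, 14477 and 13433 at 400 min; the first pair, equal after normalization, were 14251.6 and 14410.3 as deposited. The KO 400 min arrays were lower than every WT array, and their group had the lowest mean, 14129 ± 603 (SD, n = 3), against 30550 ± 3415 (SD, n = 2) in unstimulated WT cells.

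None of the differences of Csf1r passed the test. In KO cells at 400 min it was at -0.50 (SE 0.29, adjusted p = 0.558) against unstimulated cells, whose replicate 3 array lay inside the range of the 400 min group. KO cells were at -0.68 (SE 0.29, adjusted p = 0.509) against WT cells at 400 min and at -0.61 (SE 0.32, adjusted p = 0.862) unstimulated, without overlap in either case; 7.57% and 11.7% of all probe sets had groups that did not overlap in that direction. In WT cells the differences were -0.42 at 100 min and -0.43 at 400 min (SE 0.32 each). The KO and WT responses at 400 min differed by -0.08, with a 95% confidence interval from -1.005 to 0.852. The order of the group means ran from WT unstimulated through WT 100 min, WT 400 min, KO unstimulated and KO 100 min to KO 400 min. Neighbouring groups overlapped up to KO 100 min, and KO 400 min lay below KO 100 min.

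Replicate 3 arrays read lower for Csf1r. In the fit with replicate 3 as a batch they were at -0.51 (SE 0.13, adjusted p = 0.0349) against replicates 1 and 2, a comparison for which 3.58% of all tested probe sets were called lower, and replicate 3 was the lowest of its group in 5 of 5 groups, as for 3.85% of all probe sets. Csf2ra was also lowest on replicate 3 in 5 of 5 groups, at -0.28 (SE 0.12, adjusted p = 0.198). Csf2rb was at 0.63 (SE 0.43, adjusted p = 0.426) and Csf2rb2 at -0.05 (SE 0.18, adjusted p = 0.911). Unstimulated WT cells have no replicate 3 array. Within replicates 1 and 2 alone, Csf1r was at -0.70 (adjusted p = 0.0969) in KO cells at 400 min and at -0.73 (adjusted p = 0.133) between KO and WT cells at 400 min.

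The second probe set of Csf1r read between 90.1 and 469 and did not repeat the pattern of the first. In KO cells it was at 0.71 (SE 0.43, adjusted p = 0.595) at 400 min, and at that time the KO arrays lay above the WT arrays by 0.38 (SE 0.43, adjusted p = 0.869). The directions of the pair of probe sets thus opposed each other in both comparisons, and neither was called. Without the array labelled KO 400 min replicate 3 the differences of Csf1r were -0.46 and -0.64 for the first probe set and 0.89 and 0.55 for the second, again uncalled.

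Csf3r, the receptor of G-CSF, had 3 probe sets, which did not move together. The first read 616 and 1156 in unstimulated WT cells, 601, 786 and 343 at 100 min and 650, 1030 and 659 at 400 min. In KO cells it read 1131, 1403 and 935 unstimulated, 894, 984 and 494 at 100 min, and 857, 751 and 934 at 400 min. The last group lay just under the unstimulated one, with its highest array at 933.6 and the lowest unstimulated array at 934.5. The difference was -0.43 (SE 0.37, adjusted p = 0.732; groups without overlap and lower in 9.11% of all probe sets), with a 95% confidence interval from -1.22 to 0.36. Over the other IL-6 comparisons with unstimulated cells it lay between -0.63 and -0.15, all with overlap.

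The second probe set of Csf3r, which read from 41.3 to 564, had higher group means with IL-6. On no unstimulated array was it over the 40th percentile, so it was tested only through stimulated arrays and its differences are no support for a rise. It read 79.1 and 49.1 in unstimulated WT cells, 122, 167 and 243 at 100 min and 294, 228 and 298 at 400 min. All stimulated WT arrays were above the unstimulated ones, by 1.45 at 100 min and 2.12 at 400 min (SE 0.80 for each; adjusted p = 0.874, then 0.690). In KO cells it read 91.8, 51.6 and 62.5 unstimulated, 53.4, 298 and 41.3 at 100 min, and 564, 90.0 and 412 at 400 min, a difference of 2.05 (SE 0.72, adjusted p = 0.228) with overlap. The last probe set read from 14.5 to 386 and was at 2.12 (SE 0.80, adjusted p = 0.278) in KO and at -0.18 (SE 0.90, adjusted p = 0.995) in WT cells at 400 min. The second and the third were above the 40th percentile of their array on 8 of 17 arrays each, and the first on all 17. Without the array labelled KO 400 min replicate 3, the Csf3r probe sets were at -0.51, 1.76 and 1.76 in KO cells at 400 min, none called. The direction of Csf3r with IL-6 therefore differs by probe set and was settled by none of them.

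**Figure D4:**
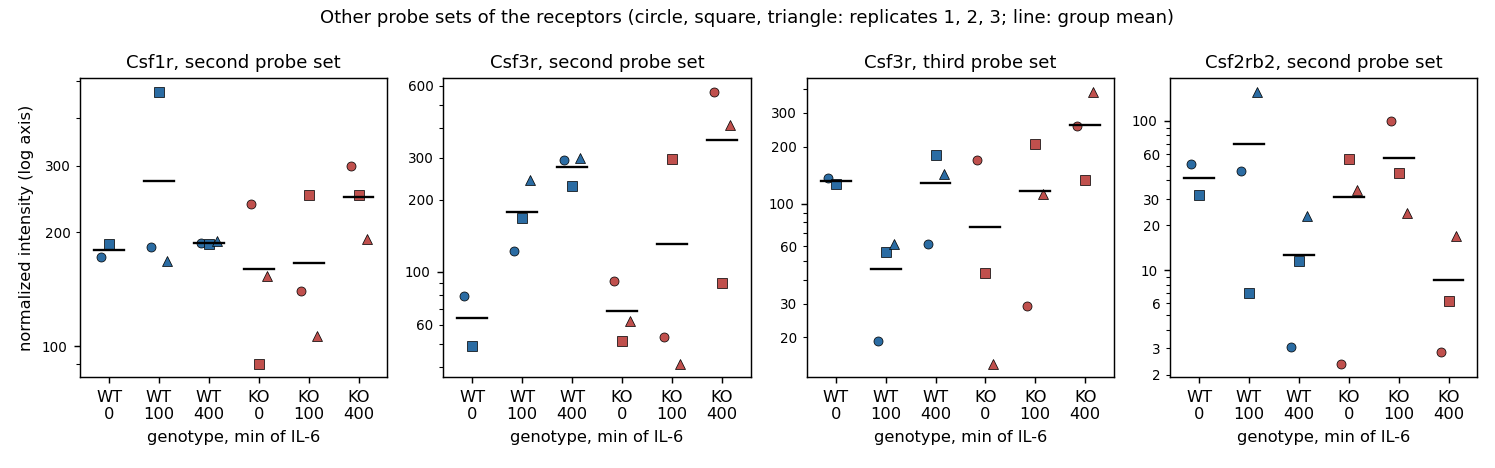
Normalized intensity (log axes) of the other receptor probe sets on the 17 arrays, by genotype and minutes of IL-6; lines are group means. The second set of Csf3r is higher on all stimulated WT arrays than on the unstimulated ones, the second set of Csf1r is higher on KO 400 min than on WT 400 min arrays, and the second set of Csf2rb2 stays at or below 156.

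The genes whose values over the 17 arrays were most like those of each receptor, by Pearson's r among tested genes with 1 symbol, are given as a description, since the arrays share groups and the replicate 3 difference. For Csf2rb2 these were Ccr1, a chemokine receptor of myeloid cells (r = 0.92, Spearman's rho 0.90), Il13ra1, a chain of the IL-13 receptor (r = 0.89, rho 0.85), and Ndrg1 (r = 0.87, rho 0.83). Csf2rb was most like Atp7a, a copper transporter (r = 0.88, rho 0.94), Htt, which encodes huntingtin (r = 0.86, rho 0.88), and Fcgr2b, an inhibitory Fc receptor (r = 0.85, rho 0.79). For Csf1r they were Ighm, the heavy chain of IgM (r = 0.96, rho 0.92), Ptov1 (r = 0.95, rho 0.92) and Hsd17b11 (r = 0.93, rho 0.84).

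Without the 2 arrays farthest from the receptor's median, r was 0.94, 0.85 and 0.85 for the genes named with Csf2rb2, 0.84, 0.77 and 0.76 for those with Csf2rb, and 0.97, 0.94 and 0.93 for those with Csf1r. Likeness was weaker for Csf2ra, led by Commd7 (r = 0.79, rho 0.81; 0.70 without 2 arrays), Ctsa, a lysosomal carboxypeptidase (r = 0.76, rho 0.86; 0.69), and Ptms (r = 0.76, rho 0.65; 0.52). For Csf3r, leaving out 2 arrays also lowered it: Creb3l1 went from 0.84 (rho 0.65) to 0.64, Sprr2e from 0.83 (rho 0.74) to 0.64 and Grid1 from 0.82 (rho 0.78) to 0.69.

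Ligands and sister receptors of the family were not called in any comparison (0 of 8 tested genes of 13 listed). At most 1.82% of all tested probe sets were called in a comparison, so a count of 0 is near that share. Csf1, the ligand of Csf1r, had means of 326 ± 128, 451 ± 60.7 and 652 ± 82.4 (SD, n = 3 each) in KO cells unstimulated and at 100 and 400 min, a difference of 1.06 (SE 0.35, adjusted p = 0.201) at 400 min; in WT cells at 400 min it was at -0.25 (SE 0.40, adjusted p = 0.979). Il6ra, the IL-6-binding chain, was at 2.08 (SE 0.60, adjusted p = 0.501) in WT cells at 400 min, from means of 157 ± 164.4 (SD, n = 2) to 457 ± 103 (SD, n = 3), and at 0.01 in KO cells. Csf3, Il3, Il5 and Il3ra differed by -0.19 to 0.63 in KO cells at 400 min and by -0.47 to 0.68 in WT cells, and none passed. Flt3 was at 0.79 in KO cells at 400 min (adjusted p = 0.229). Epor had means of 103 ± 76.6 and 230 ± 52.1 (SD, n = 3 each) in KO cells unstimulated and at 400 min. By limma's p before adjustment, 3 of the 8 genes were under 0.05 in KO cells at 400 min (12.2% of all tested probe sets). In WT cells 1 was (6.26%). The list medians were 0.49 in KO and -0.22 in WT cells, against -0.04 and -0.01 over all tested probe sets.

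Of 25 tested signalling proteins of these receptors (34 listed), 2 rose in KO cells at 400 min and 0 fell (1.2% and 0.628% of all tested probe sets), and none was called in the other comparisons. The median was 0.10, against -0.04 over all tested probe sets. Gab1, an adaptor that recruits PI3-kinase and SHP-2, read 126, 103 and 131 in unstimulated KO cells and 799, 744 and 405 at 400 min, a rise of 2.38 (SE 0.35, adjusted p = 0.00362); a second probe set was at 1.54 and was not called (adjusted p = 0.362). Stat3, which G-CSF and IL-6 both activate, read 1907, 2019 and 1438 unstimulated and 5008, 4764 and 4001 at 400 min in KO cells, and rose by 1.37 (SE 0.25, adjusted p = 0.0127), and its second probe set by 1.28 (adjusted p = 0.0304). The call of Gab1 was kept with each array left out, and that of Stat3 on the first probe set was lost without KO 400 min replicate 1 or 2 or KO unstimulated replicate 3 (highest adjusted p = 0.0648). In WT cells both genes were also higher on all 400 min arrays than on the unstimulated ones, uncalled. Gab1 read 112 and 174, then 195, 328 and 391, and Stat3 1745 and 2060, then 3605, 3910 and 3193. Such a separation was seen for 10.8% of all tested probe sets.

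Among 17 tested feedback and target genes of CSF signalling (20 listed), 2 were called higher and 0 lower in KO cells at 100 min (0.537% and 0.0405% of all tested probe sets), and 2 higher and 1 lower at 400 min (1.2% and 0.628%). Myc, a dim gene tested only through stimulated KO arrays, is 1 of those called higher at each time. The medians were 0.69 and 0.32, against -0.04 over all probe sets at each time. Pim1, a survival kinase induced by STAT factors, went from 1465, 1247 and 1220 in unstimulated KO cells to 4404, 4080 and 3910 at 100 min and 5112, 4636 and 6103 at 400 min. Its rises of 1.66 (SE 0.22, adjusted p = 0.00299) and 2.01 (SE 0.22, adjusted p = 0.000479) were kept with each array left out, while a second probe set was at 0.36 and 1.37 and not called. In WT cells Pim1 lay above both unstimulated arrays on all stimulated ones, by 1.05 (SE 0.24, adjusted p = 0.266) at 400 min. Groups separated in that direction for 10.7% of all tested probe sets at 100 min and 10.8% at 400 min.

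The growth regulator Myc read 28.5, 7.61 and 15.2 in unstimulated KO cells, 117, 141 and 95.2 at 100 min and 138, 120 and 100.5 at 400 min. It was tested only because 2 stimulated KO arrays passed the 40th percentile, and 2 of its unstimulated KO arrays were at or under the floor, so no size is given for its change. Its adjusted p was 0.0403 at 100 min and 0.02 at 400 min. With the floor at the 25th percentile it was no longer called at 100 min (adjusted p = 0.0865) and was called at 400 min (adjusted p = 0.0315). With the trend and robust setting it was not called at either time (adjusted p = 0.194 and 0.0707), nor was it in replicates 1 and 2 alone (0.187 and 0.105), and under a stricter filter it was not tested.

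Fos, a subunit of the AP-1 factor, fell by 2.10 (SE 0.46, adjusted p = 0.0357) in KO cells at 400 min, with a call that was lost without 7 of the 17 arrays, both unstimulated WT arrays, the unstimulated KO arrays and KO 400 min replicates 1 and 2 (highest adjusted p = 0.134). In WT cells Fos read 706 and 625 unstimulated and 339, 311 and 985 at 400 min, with overlap.

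Socs1, a relative of Socs3 that restrains JAK kinases, was the only gene of these lists called between genotypes: at 400 min it read 828, 848.5 and 852.5 in KO cells against 140, 197 and 100.5 in WT cells, a difference of 2.58 (SE 0.46, adjusted p = 0.0336). That call was lost without any of the 6 arrays compared or KO unstimulated replicate 2 (highest adjusted p = 0.117).

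Of 13 tested transcription factors that act on the receptor genes (16 listed), 1 rose and 1 fell in KO cells at 100 min (0.537% and 0.0405% of all tested probe sets), and 0 rose and 1 fell at 400 min (1.2% and 0.628%), with medians of 0.09 and 0.05. Cebpa, a factor of early myeloid differentiation, read 2623, 3230 and 3596 in unstimulated KO cells, 1142, 1163 and 1652 at 100 min and 941, 826 and 1263 at 400 min. It fell by 1.26 (SE 0.24, adjusted p = 0.0301) and 1.65 (SE 0.24, adjusted p = 0.00362). In WT cells Cebpa read 2104 and 2566 unstimulated and 1626, 1410 and 1887 at 400 min, uncalled. These groups did not overlap either, as for 11.2% of all tested probe sets in that direction. The earlier call was lost without 6 arrays, the 3 unstimulated KO arrays, KO 100 min replicates 1 and 2 and KO 400 min replicate 1 (highest adjusted p = 0.183), and the later one was kept without each. Cebpd rose by 1.304 (SE 0.27, adjusted p = 0.0468) in KO cells at 100 min, a call that held without 3 of the 17 arrays, WT 400 min replicates 1 and 3 and WT 100 min replicate 3 (highest adjusted p = 0.175). In WT cells Cebpd read 1079 and 809 unstimulated and 1271, 1222 and 1493 at 100 min, uncalled. These groups did not overlap, as for 10.7% of all tested probe sets in that direction. In fits of only the groups compared, the calls of Gab1 (adjusted p = 0.0516), Stat3 (0.106), Fos (0.0553), Socs1 (0.0678), Cebpd (0.168), Cebpa (0.26 at 100 min and 0.0837 at 400 min) and Pim1 at 100 min (0.0975) were lost, and that of Pim1 at 400 min was kept (0.0307). Spi1, which encodes PU.1, was at 0.20 (SE 0.28, adjusted p = 0.866) in KO cells at 400 min.

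**Figure D5:**
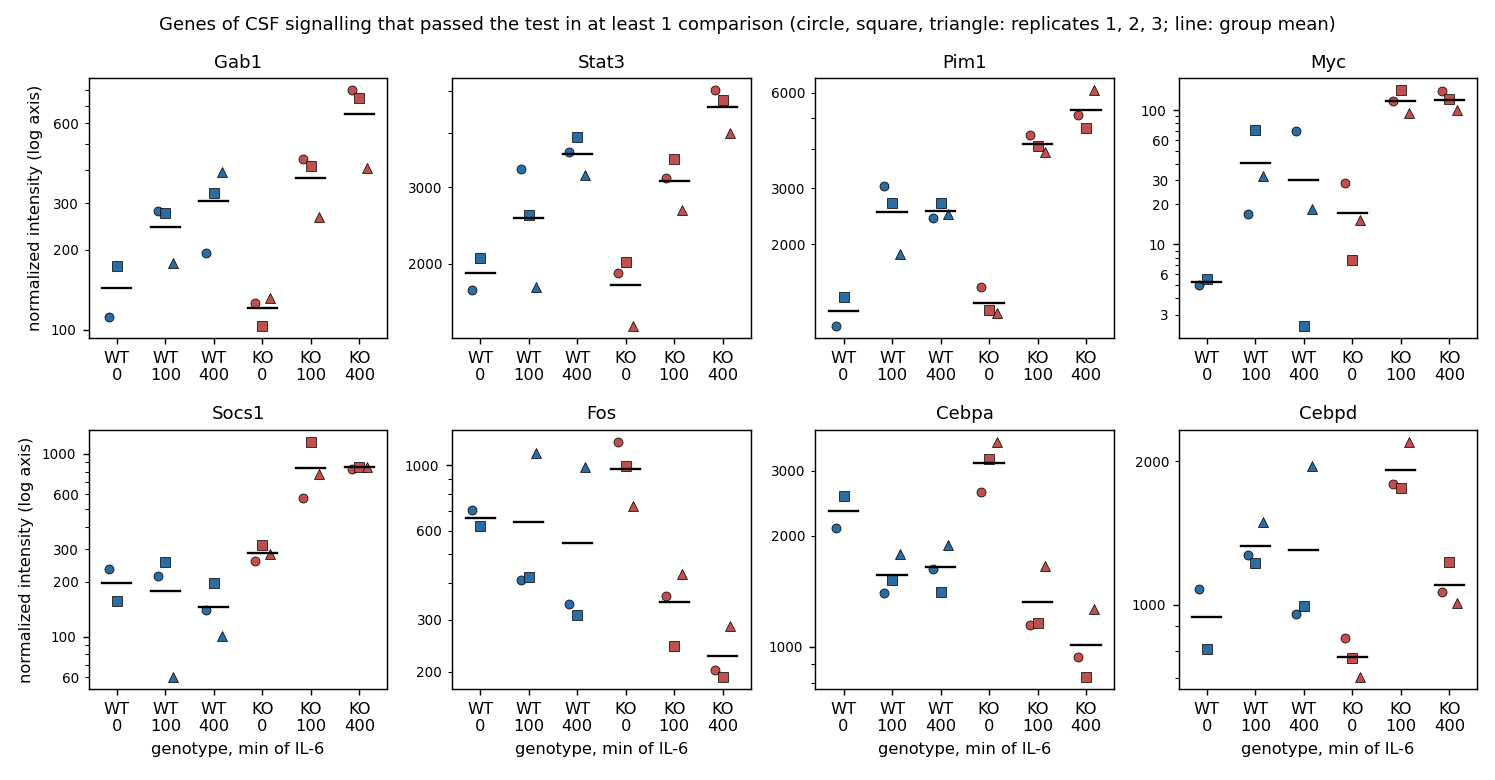
Normalized intensity (log axes) of the 8 genes of CSF signalling that were called in at least 1 comparison, on the 17 arrays by genotype and minutes of IL-6; lines are group means. Gab1, Stat3 and Pim1 are higher and Fos and Cebpa lower on all KO 400 min arrays than on the unstimulated KO arrays.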

How the data were processed

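The deposited table gives 1 linear intensity per probe set and array; from the values, the mean after leaving out the lowest and highest 2% was about 500.3 to 500.4 on every array, so the authors had scaled the deposited intensity per array. The sources used here do not give the software, background correction or detection calls, and precision is limited by the number of arrays. Array medians differed by 0.40 on the log2 scale (limit 0.3), so values were quantile normalized, raised to at least 22.01, their 10th percentile, and log2 transformed. The 66 control probe sets were left out, and testing required a value over the 40th percentile in 2 or more arrays. Differences were tested with limma 3.58.1 (R 4.3.3), with 1 mean per group and eBayes, checked on simulated data. Genes were named from the platform's annotation, where 10855 probe sets had 1 symbol, 396 several and 1237 none. Named genes were the receptors, every called gene of 4 lists (for the list without a call, the 2 genes of lowest p over the comparisons with unstimulated cells), the 3 most correlated genes per receptor, and Socs3. Csf3, Il3, Il5, Il3ra, Epor, Flt3, Spi1 and the cell type markers named in the text were added after their values were seen. The members and lists were chosen with earlier results of these data known. Alternatives were another scaling, floors, filters, variance model, blocks and samples.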

Additional observations from a re-analysis of the deposited data

How the results depend on the processing

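In KO cells at 400 min against unstimulated cells, 2 receptor probe sets were called, Csf2rb and Csf2rb2. The count was 1 (Csf2rb) with no filter on dim probe sets, where Csf2rb2 had an adjusted p of 0.0545, and 0 in a fit of only these groups, where Csf2rb had an adjusted p of 0.0838 and Csf2rb2 of 0.195. With each array left out it ranged from 0 to 2. In WT cells at 400 min the count was 0; it was 1 (Csf2rb, adjusted p = 0.042) with an intensity trend and robust setting, and 0 to 1 with each array left out. Every other alternative gave the same counts, 0 in the other 9 comparisons and 2 in KO cells at 400 min.

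The replicate number as a block changed no receptor call: Csf2rb had an adjusted p of 0.0211 and Csf2rb2 of 0.041 in KO cells at 400 min. Same-numbered arrays of different groups had correlations of their deviations from the group means of -0.02 to 0.24. Their median was 0.06, with 11 of 40 pairs over 0.1. For differently numbered arrays the median was -0.04, with 2 of 80 pairs over 0.1, and 14 of 17 arrays correlated best with their own number. Arrays of the same number thus resembled each other more. The main fit has no block because the labels do not say that the numbers pair arrays. In KO cells at 400 min against unstimulated cells, the block raised the calls over all probe sets from 180 to 305. Replicate 3 as a batch raised them to 332, replicates 1 and 2 alone to 309 and the trend setting to 290. The fit of only the compared groups called 52. Leaving out a single array gave 73 to 231.

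Of 2376 receptor values under an alternative, 73 changed sign against a difference that was not called on either side, and no called difference did. Low signal limits the second probe set of Csf2rb2, which was not tested, the dim probe sets of Csf3r and the unstimulated WT level of Csf2rb.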
